A study of Homo sapiens with 4 samples.

Results

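GDF15, NUPR1 and ATF3 are 3 stress-response genes, taken by symbol from the 26364 gene symbols of 4 count tables. They were selected on their log2 ratios in these same libraries, for either treatment, for both against neither, and for the departure of both from the sum, so these values describe them and were not tested. The 4 libraries were made from RNA of NCI-H460, a widely used line from a human large cell lung carcinoma. Gamma rays were given at 4 or 0 Gy, followed by 48 h in 2 uM 3-deazaneplanocin A (DZNep) or in its solvent DMSO. The groups were DZNep with 4 Gy, DZNep with 0 Gy, DMSO with 4 Gy and DMSO with 0 Gy, each 1 library, so no group has a replicate and nothing in the labels shows separate cultures. DZNep blocks S-adenosylhomocysteine hydrolase and so slows methylation by many enzymes. The design text of the study states a search for differentially expressed genes.

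GDF15 encodes a secreted, distant member of the TGF-beta superfamily that acts on appetite through the receptor GFRAL with its co-receptor RET, and the stress factors ATF4 and CHOP are known to raise its transcription. ATF3 is a basic leucine zipper (bZIP) transcription factor that pairs with JUN proteins and is switched on early by many stresses, among them DNA damage and the integrated stress response. In that response, kinases phosphorylate eIF2, general translation slows, and translation of ATF4 rises. NUPR1 encodes a small, largely disordered chromatin protein that is induced by cell stress and binds other regulators.

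The RefSeq promoter windows, 250 bases before to 50 bases after an annotated start on GRCh38.p14, are shown for GDF15 and ATF3, which like NUPR1 were highest in the library with both treatments. The promoter of NUPR1 was not analysed here. Capitals mark matches, on either strand, to TGACNTCA (a cyclic AMP response element or its variants), TGATGNAA (a C/EBP-ATF element), TGANTCA (an AP-1 site), CCAAT (a box bound by NF-Y) or TATAA (the core of a TATA box). TGACNTCA and TGANTCA differ in spacing, and none of these matches overlapped another motif. The windows are GDF15 at chr19:18385908-18386207 and 2 starts of ATF3 at chr1:212565157-212565456 and chr1:212614768-212615067, all on the + strand.
GDF15: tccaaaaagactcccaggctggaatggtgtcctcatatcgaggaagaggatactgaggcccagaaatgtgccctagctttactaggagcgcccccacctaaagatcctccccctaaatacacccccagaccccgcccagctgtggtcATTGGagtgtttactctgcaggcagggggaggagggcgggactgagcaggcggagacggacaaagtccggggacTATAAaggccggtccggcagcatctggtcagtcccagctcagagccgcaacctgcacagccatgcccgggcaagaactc
ATF3, upstream start: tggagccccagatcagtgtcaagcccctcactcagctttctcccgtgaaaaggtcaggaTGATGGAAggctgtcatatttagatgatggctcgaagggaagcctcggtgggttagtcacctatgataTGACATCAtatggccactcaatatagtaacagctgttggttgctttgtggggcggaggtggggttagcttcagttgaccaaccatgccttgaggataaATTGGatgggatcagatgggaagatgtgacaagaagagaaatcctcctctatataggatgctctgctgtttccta
ATF3, downstream start: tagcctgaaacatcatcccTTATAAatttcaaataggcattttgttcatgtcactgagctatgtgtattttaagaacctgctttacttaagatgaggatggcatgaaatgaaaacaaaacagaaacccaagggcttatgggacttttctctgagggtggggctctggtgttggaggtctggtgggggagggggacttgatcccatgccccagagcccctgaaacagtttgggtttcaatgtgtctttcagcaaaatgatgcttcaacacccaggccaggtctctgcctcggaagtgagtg
The upstream ATF3 window held TGACATCA at position -123 from the start and TGATGGAA at -191, motifs found in 7.72% and 3.62% of 35116 promoter windows of the same length. It also held a reversed CCAAT at -25. GDF15 held a reversed CCAAT at -103 and TATAA at -29, motifs of 34.6% and 20.4% of windows, and the downstream ATF3 window held TATAA only. AP-1 sites (7.71% of windows) were not found in these 3 windows. The motifs were chosen with the sequences in view, and a match is a description of letters.

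Totals were 116234177 counts with DZNep and 4 Gy, 128255695 with DZNep and 0 Gy, 112461380 with DMSO and 4 Gy and 136594350 with DMSO and 0 Gy. Levels are CPM, counts scaled to a common library size with TMM factors, and intervals are 95% and cover counting error only. Even values made up 55.9% to 58.1% of the counts from 1 to 59, so some counts may be mates of 1 fragment and intervals are then too narrow. CPM are shares of a library, so more RNA per cell and more cells that carry a transcript cannot be told apart. The keratin genes KRT8 and KRT18 stood at 633 to 2070 CPM and vimentin (VIM) at 755 to 976 CPM, while EPCAM and CDH1 were under 0.5 CPM in all libraries. Among 12 markers of blood, endothelium and fibroblasts, PTPRC, CD3E, CDH5 and COL1A2 had 0 to 9 counts per library, PECAM1 and VWF at most 49 and DCN at most 75. The others were above this, with CD68 at 60.1 to 88.2 CPM, COL1A1 at 8.90 to 18.8 CPM, CD14 at 7.33 to 9.84 CPM, COL3A1 at 3.96 to 9.00 CPM and PDGFRB at 4.10 to 10.5 CPM. The summed level of these markers was 104 and 90.6 CPM with DZNep at 4 and 0 Gy and 135 and 102 CPM with DMSO at 4 and 0 Gy, most of it CD68, and their part in the results was not tested.

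GDF15 was highest in the library that had both treatments. It stood at 304 CPM with DZNep and 4 Gy, 36.1 CPM with DZNep and 0 Gy, 64.7 CPM with DMSO and 4 Gy and 10.4 CPM with DMSO and 0 Gy. The counts behind these levels were 34613, 4667, 7270 and 1433. Radiation alone therefore went with a higher level than DZNep alone, the DZNep 0 Gy library being lower than the DMSO 4 Gy library by a log2 ratio of -0.84 (interval -0.90 to -0.79). DZNep over DMSO was 3.48-fold at 0 Gy (log2 1.80, interval 1.71 to 1.89) and 4.70-fold at 4 Gy (log2 2.23, interval 2.20 to 2.27). At 4 Gy over 0 Gy the ratio was 8.44-fold in DZNep (log2 3.08, interval 3.03 to 3.12) and 6.24-fold in DMSO (log2 2.64, interval 2.56 to 2.73). Both treatments over neither gave 29.3-fold (log2 4.88, interval 4.80 to 4.95), the eighth highest of 8506 genes that reached 10 CPM in at least 1 library. In rank by CPM among all symbols, GDF15 was number 560 with both treatments and number 7595 with neither. The symbol MIR3189, a microRNA annotated in an intron of GDF15, was listed with 3028, 456, 683 and 110 counts in the same order of libraries, which is 8.75%, 9.77%, 9.39% and 7.68% of the GDF15 count. Reads of the 2 symbols cannot be told apart in these tables.

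NUPR1 had the lowest CPM of the 3 genes in every library and the widest range as a fold. It stood at 20.2 CPM with DZNep and 4 Gy, 7.83 CPM with DZNep and 0 Gy, 4.20 CPM with DMSO and 4 Gy and 0.506 CPM with DMSO and 0 Gy, from 2303, 1013, 472 and 70 counts. It reached 10 CPM in 1 library and 1 CPM in 3, so it enters the ranks given here only through the library with both treatments, and every ratio to DMSO 0 Gy rests on those 70 counts. DZNep over DMSO was 15.0-fold at 0 Gy (log2 3.91, interval 3.60 to 4.32) and 4.80-fold at 4 Gy (log2 2.26, interval 2.13 to 2.41). The ratio of 4 Gy over 0 Gy was 2.58-fold in DZNep (log2 1.37, interval 1.26 to 1.48) and 8.08-fold in DMSO (log2 3.01, interval 2.69 to 3.44). Each treatment thus went with a smaller ratio where the other was already present. DZNep alone stood above radiation alone by 0.90 (interval 0.74 to 1.06). Both over neither was 38.8-fold (log2 5.28, interval 4.98 to 5.69), the sixth highest of 8506 genes. NUPR1L, the NUPR1 paralog, had 0 counts in the 4 libraries, which allows up to 3 counts in each.

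ATF3 had the highest CPM of the 3 genes where cells had not been irradiated. It stood at 166 CPM with DZNep and 4 Gy, 66.8 CPM with DZNep and 0 Gy, 37.0 CPM with DMSO and 4 Gy and 23.1 CPM with DMSO and 0 Gy, from 18917, 8646, 4158 and 3198 counts. DZNep over DMSO was 2.89-fold at 0 Gy (log2 1.53, interval 1.47 to 1.59) and 4.49-fold at 4 Gy (log2 2.17, interval 2.12 to 2.22). Radiation alone gave the smallest ratio among the members, 1.60-fold in DMSO (log2 0.68, interval 0.61 to 0.75), against which 566 of 8506 genes ranked at or above it. In DZNep the ratio of 4 Gy over 0 Gy was 2.49-fold (log2 1.32, interval 1.28 to 1.35). DZNep alone stood above radiation alone by 0.85 (interval 0.80 to 0.91). Both over neither was 7.19-fold (log2 2.85, interval 2.79 to 2.90), rank 31 of 8506.

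**Figure D1:**
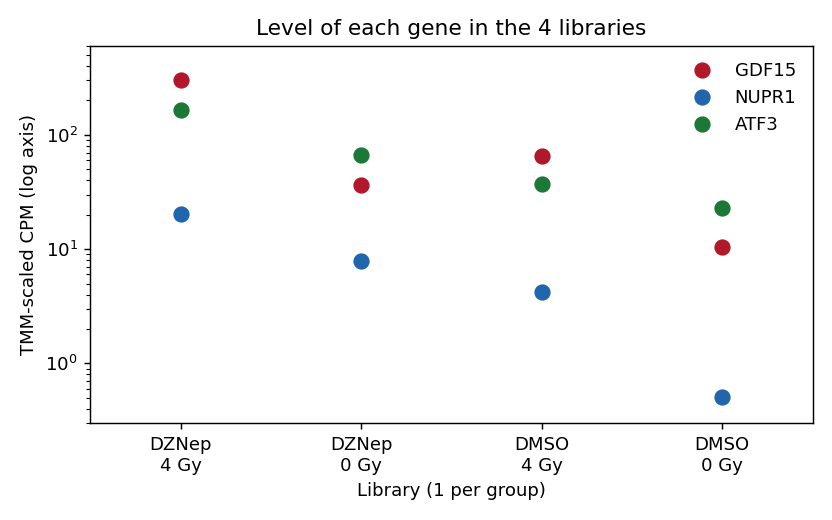
TMM-scaled CPM of GDF15, NUPR1 and ATF3 (log axis) in the 4 libraries, 1 point per gene and library. All 3 genes are highest with DZNep and 4 Gy and lowest with DMSO and 0 Gy, and between these GDF15 is higher with DMSO and 4 Gy (64.7 CPM) while NUPR1 and ATF3 are higher with DZNep and 0 Gy (7.83 and 66.8 CPM).

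The order of the middle libraries separated the members. All 3 had the highest level with both treatments and the lowest with neither, GDF15 followed the radiation more than the drug, and NUPR1 and ATF3 followed the drug more than the radiation. For each member, the counting intervals of the log2 ratios between neighbouring levels in that order exclude 0, but with 1 library per group the spread between cultures is unknown. The count of GDF15 over that of ATF3 was 1.83 with DZNep and 4 Gy and 1.75 with DMSO and 4 Gy, against 0.540 with DZNep and 0 Gy and 0.448 with DMSO and 0 Gy. That ratio was closer between drug arms than between doses. The count of ATF3 over that of NUPR1 was 8.21, 8.54 and 8.81 in the 3 treated libraries (DZNep 4 Gy, DZNep 0 Gy and DMSO 4 Gy) and 45.7 in DMSO 0 Gy. Per kilobase of the GENCODE 29 principal transcript (1200 bases for GDF15 and 2033 for ATF3), the level of GDF15 was 254 CPM per kb with DZNep and 4 Gy, 30.0 with DZNep and 0 Gy, 53.9 with DMSO and 4 Gy and 8.63 with DMSO and 0 Gy. The level of ATF3 per kilobase was 81.8, 32.9, 18.2 and 11.4 in the same libraries, so GDF15 was above ATF3 after radiation and below it without.

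**Figure D2:**
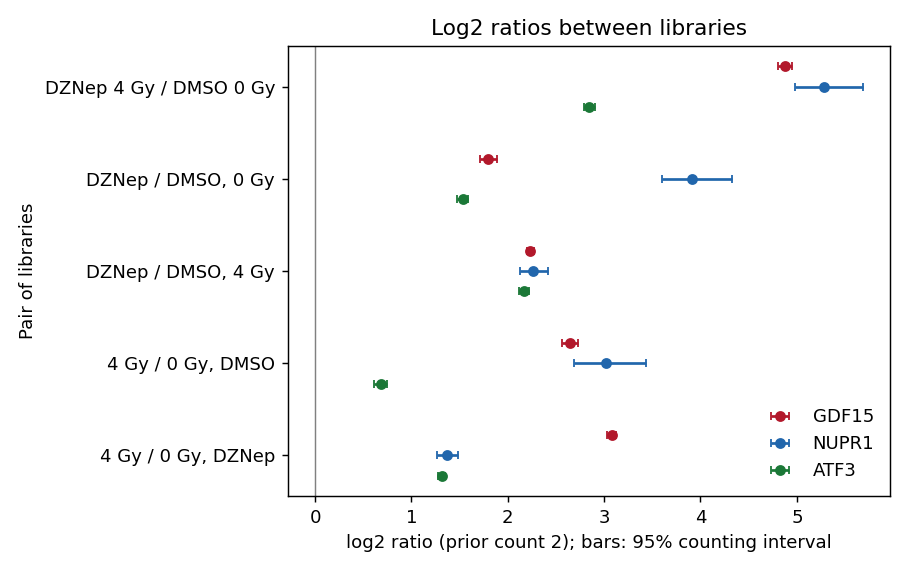
Log2 ratios (x axis, prior count 2) of 5 pairs of libraries for GDF15, NUPR1 and ATF3, with bars for 95% counting intervals. The DZNep ratios at 4 Gy lie together at 2.17 to 2.26, whereas those at 0 Gy spread from 1.53 to 3.91.

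In irradiated cells the DZNep ratios of the 3 genes were alike, with log2 values of 2.23 for GDF15, 2.26 for NUPR1 and 2.17 for ATF3 and overlapping counting intervals. In unirradiated cells they ran from 1.53 for ATF3 to 3.91 for NUPR1. All 3 members were at least 2-fold higher with DZNep at 0 Gy and at 4 Gy, as were 3.79% and 3.23% of the 8506 genes. All 3 were at least 2-fold higher at 4 Gy in DZNep (1.09% of genes), and GDF15 and NUPR1 were so in DMSO (2.27% of genes). All 3 were at least 2-fold higher with both treatments than with neither, against 6.0% of genes. The members were picked for these ratios, and nothing is read from those counts.

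With both treatments, all 3 genes exceeded the DMSO 0 Gy level plus both single CPM gains. The share of all genes that did so was not computed, and the members were picked on their ratios. Only GDF15 and ATF3 exceeded the sum of their log2 ratios, as did 52.0% of the 8506 genes at 10 CPM or more in at least 1 library. GDF15 gained 294 CPM with both treatments, 25.7 CPM with DZNep alone and 54.3 CPM with radiation alone, so the measured 304 CPM was 3.37 times the 90.4 CPM reached by adding both single gains to the 10.4 CPM of DMSO 0 Gy. ATF3 gained 143 CPM with both, 43.7 CPM with DZNep and 13.9 CPM with radiation, and its 166 CPM was 2.06 times the 80.7 CPM reached in the same way from 23.1 CPM. NUPR1 gained 19.7 CPM with both, 7.32 CPM with DZNep and 3.69 CPM with radiation, and its 20.2 CPM was 1.76 times the 11.5 CPM reached from 0.506 CPM. On the log2 scale, where ratios add, the level from the sum was 225 CPM for GDF15, 107 CPM for ATF3 and 65.0 CPM for NUPR1. Each is above the level from the CPM gains, as for any gene that is higher with each treatment alone. Exceeding the CPM sum therefore depends on the scale. The levels from the log2 ratios hold no prior count, and without one the departure of NUPR1 from the sum was -1.68. With a prior count of 2 the departure from the sum was 0.43 for GDF15 (interval 0.34 to 0.53), 0.64 for ATF3 (0.56 to 0.71) and -1.64 for NUPR1 (-2.06 to -1.31). With all counts halved, in case mates were counted separately, these intervals became 0.30 to 0.56, 0.53 to 0.74 and -2.21 to -1.15.

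**Figure D3:**
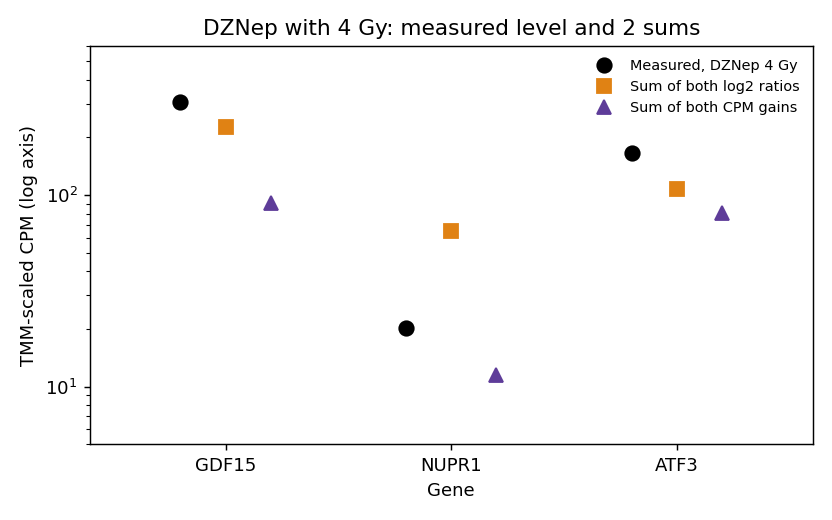
Measured level with DZNep and 4 Gy (circles), level given by adding both log2 ratios (squares) and level given by adding both CPM gains to the DMSO 0 Gy level (triangles), in TMM-scaled CPM on a log axis. GDF15 and ATF3 lie above both sums (304 and 166 CPM measured), and NUPR1, at 20.2 CPM, lies between 11.5 and 65.0 CPM.

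Set beside all genes, the departures of GDF15 and ATF3 were moderate and that of NUPR1 was near the low end. Over the 8506 genes the departure had a median of 0.02, and the middle 90% lay between -0.61 and 0.64. GDF15 was at the percentile 87.4 and ATF3 at 94.9, just inside that range, while NUPR1 was the ninth lowest. A departure of at least 2-fold upward was seen in 0.941% of genes and in none of the 3 members, and one of at least 2-fold downward in 1.07% of genes and in NUPR1. Each departure depends on the DMSO 0 Gy library and would be 0 if that library had held 1061 counts of GDF15 in place of 1433, 225 of NUPR1 in place of 70, or 2057 of ATF3 in place of 3198. With 1 library per group the departure has no error estimate beyond counting and was not tested.

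**Figure D4:**
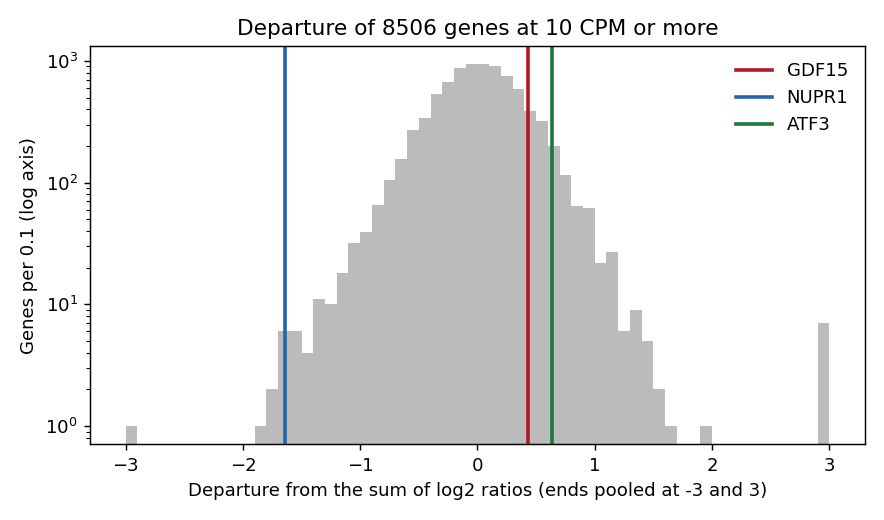
Histogram (log axis, bins of 0.1) of the departure from the sum of log2 ratios for 8506 genes at 10 CPM or more in at least 1 library, with lines for the 3 genes. GDF15 (0.43) and ATF3 (0.64) fall within the upper slope and NUPR1 (-1.64) in the lower tail.

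Genes with a like pattern were sought by the distance between their 3 log2 ratios to DMSO 0 Gy, over the 4 libraries. The search covered genes at 10 CPM or more in at least 1 library. Symbols of microRNAs and other small RNAs, MIR3189 among them, were left out, so the neighbours named here are not those among all symbols. ATF3 had close neighbours: SLC6A9, a glycine transporter gene, at a distance of 0.33, ICAM1, an adhesion molecule gene, at 0.39, FHL2, a LIM domain protein gene, at 0.54, RTN2, a reticulon gene, at 0.58, and STC2, a secreted glycoprotein gene, at 0.61. SLC6A9 stood at 107, 55.1, 32.1 and 18.5 CPM in DZNep 4 Gy, DZNep 0 Gy, DMSO 4 Gy and DMSO 0 Gy. The nearest genes to GDF15 lay farther off, UNC5B at 1.74, NLRP1 at 1.75, PVT1 at 1.75, PCDH15 at 1.83 and PGF at 1.87. UNC5B, a netrin receptor gene, stood at 25.7, 7.93, 12.1 and 2.72 CPM in the same libraries. Nearest to NUPR1 was CEACAM1, an adhesion molecule gene, at 1.40, with 12.4, 4.58, 5.16 and 0.238 CPM. TNS4 (2.14), GDF15 itself (2.18), CITED2 (2.20) and PCDH15 (2.38) followed. GDF15 and ATF3 were 2.84 apart and NUPR1 and ATF3 4.13.

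Other genes of these pathways were read from an additive edgeR model of drug and dose over the 4 libraries, with Benjamini-Hochberg adjustment over 13378 genes. Of these genes 10.8% rose and 12.2% fell with DZNep, and 2.13% rose and 0.882% fell with radiation. Rises were 70.7% of the radiation calls, and 56.9% under plain library size scaling. These calls rest on additivity and on 1 residual degree of freedom. Among the genes named above and in what follows, the exons of ATF6B, CD68, CDH1, CDKN1A, CEACAM1, COL3A1, CREM, DDIT3, EIF2B2, EP300, ICAM1, IER3, JDP2, KRT18, KRT8, MDM2, NR4A1, PCSK6, PTMA, PVT1, RTN2, SLC6A9, SLC7A11, TGFB2, VIM and VLDLR overlap those of another annotated gene, so their counts are less certain.

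Of 16 genes of the switch that slows translation and raises ATF4, 4 rose and 0 fell with DZNep (5 and 3 at an unadjusted p under 0.05, and 4 and 0 in DESeq2), beside the 10.8% and 12.2% of all genes. The list median was 0.05, against -0.02 for all genes. The rises were ATF4 itself (log2 0.60, SE 0.13, adjusted p = 0.00564), the phosphatase subunit genes PPP1R15A (0.94, SE 0.20) and PPP1R15B (0.83, SE 0.15), and EIF2B2 (0.58, SE 0.19). ATF4 stood at 1016 and 1373 CPM with DZNep at 4 and 0 Gy and at 662 and 913 CPM with DMSO at 4 and 0 Gy. With radiation PPP1R15A alone rose (1.29, SE 0.20, adjusted p = 0.00596), beside 2.13% of all genes, and ATF4 was at -0.45 (SE 0.13, adjusted p = 0.0754).

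Among targets of ATF4 and CHOP, calls with DZNep ran upward. Of 32 genes 17 rose and 0 fell (22 and 2 at an unadjusted p under 0.05, and 17 and 0 in DESeq2), beside the 10.8% and 12.2% of all genes. The list median was 0.48. The largest were STC2 (1.98, SE 0.16), VLDLR, a lipoprotein receptor gene (1.67, SE 0.17), SLC6A9 (1.66, SE 0.16) and CHAC1, a glutathione-degrading enzyme gene (1.65, SE 0.17). With radiation 4 rose and 0 fell (9 and 3 at an unadjusted p under 0.05, and 6 and 1 in DESeq2), beside 2.13% and 0.882% of all genes. The rises were SESN2, a stress-induced regulator of mTORC1 (1.31, SE 0.19), ADM2 (0.98, SE 0.18), SLC6A9 (0.88, SE 0.16) and DDIT3 (0.86, SE 0.20). DDIT3, which encodes CHOP, stood at 20.1 and 8.85 CPM with DZNep at 4 and 0 Gy and at 23.8 and 16.2 CPM with DMSO at 4 and 0 Gy, and its DZNep effect of -0.56 (SE 0.20) did not pass (adjusted p = 0.0591). TRIB3, a pseudokinase gene and CHOP target, stood at 482 and 340 CPM with DZNep and at 341 and 291 CPM with DMSO (0.36, SE 0.14, adjusted p = 0.0851).

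In the other branches of the unfolded protein response 3 of 20 genes rose and 2 fell with DZNep, near the shares of all genes (10.8% and 12.2%). ATF6B (0.66, SE 0.15), the sensor gene ERN1 (0.78, SE 0.21) and HERPUD1 (0.90, SE 0.16) rose, and the chaperone genes PDIA4 (-0.62, SE 0.15) and CANX (-0.40, SE 0.13) fell, with a list median of 0.15. In DESeq2, under RLE scaling and with no filter on low counts 1 gene of the list fell in place of 2. Under plain library size 3 fell, and with a 10 CPM filter 2 rose and 3 fell. With radiation ERN1 rose (0.91, SE 0.21), beside 2.13% of all genes. CANX was named after its value was seen.

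Among 29 bZIP relatives and partners of ATF3, 6 rose with DZNep and 1 fell, beside 10.8% and 12.2% of all genes. The list median was 0.22, against -0.02 for all genes. JUNB rose by 1.59 (SE 0.17), JDP2, a bZIP repressor gene, by 0.88 (SE 0.18), MAFF by 0.90 (SE 0.21) and CEBPG by 0.89 (SE 0.20). The fall was that of CREM (-0.87, SE 0.15), named after its value was seen. FOSL2 (0.76, SE 0.18) and DDIT3 rose with radiation, beside 2.13% of all genes. With a 10 CPM filter 5 genes of the list rose and 3 fell with DZNep. JDP2, CEBPG and DDIT3 are also in other lists.

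Of 27 stress kinase pathway and early response genes, 11 rose and 1 fell with DZNep, beside 10.8% and 12.2% of all genes. The list median was 0.45, against -0.02 for all genes. NR4A1, an orphan nuclear receptor gene (2.20, SE 0.20), IER3 (1.69, SE 0.17), KLF10 (1.58, SE 0.17) and the phosphatase gene DUSP5 (1.53, SE 0.18) rose most at 10 CPM or more. EGR1, an early transcription factor gene known to act on ATF3 and GDF15, fell, with 3.77 and 4.16 CPM with DZNep at 4 and 0 Gy against 14.4 and 8.65 CPM with DMSO at 4 and 0 Gy (-1.49, SE 0.25, adjusted p = 0.00112). With radiation GADD45A rose (2.01, SE 0.17), beside 2.13% of all genes, and no other gene of the list passed. GADD45A, like SESN2 above, is also in the list of genes induced by DNA damage that follows.

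Most genes of a list known to be induced by DNA damage rose with radiation. Of 28 genes 19 rose and 0 fell (26 and 0 at an unadjusted p under 0.05, and 22 and 0 in DESeq2), beside 2.13% and 0.882% of all genes. The list median was 1.23, against 0.01 for all genes. BTG2, an antiproliferative gene (2.68, SE 0.18), the cyclin-dependent kinase inhibitor gene CDKN1A (2.53, SE 0.15) and FDXR, a mitochondrial reductase gene (2.19, SE 0.17), were among the rises. CDKN1A stood at 1307 and 251 CPM with DZNep at 4 and 0 Gy and at 1296 and 201 CPM with DMSO at 4 and 0 Gy. MDM2, a ubiquitin ligase gene, rose by 1.60 (SE 0.17, adjusted p = 0.00041). With DZNep 4 of the 28 rose and 5 fell, beside 10.8% and 12.2% of all genes, with a median of 0.01 against -0.02 for all genes. AEN, a nuclease gene, was among the rises (0.79, SE 0.17). The falls included CCNG1, a cyclin gene (-1.08, SE 0.16), and SPATA18, a mitochondrial quality control gene (-1.34, SE 0.31). The effect of SPATA18 averages unlike values, a DZNep log2 ratio of -0.52 at 0 Gy and -2.10 at 4 Gy.

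**Figure D5:**
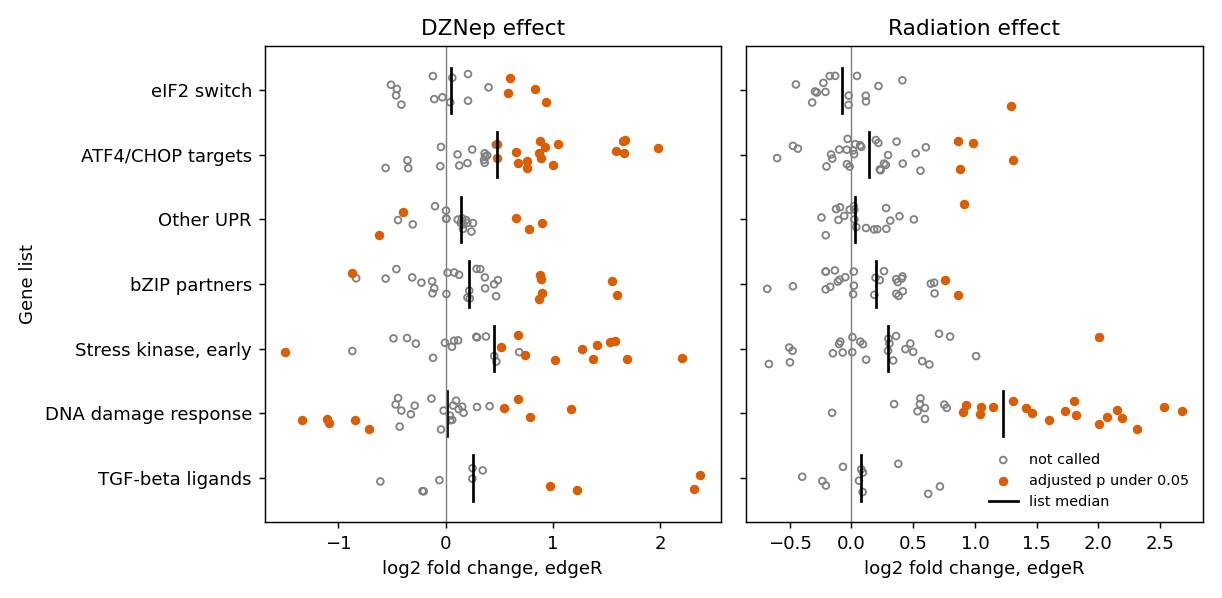
Log2 fold change of each tested gene of 7 lists for the DZNep effect (left) and the radiation effect (right), with filled points for an adjusted p under 0.05 and bars for list medians. ATF4 and CHOP targets lie to the right for DZNep (17 of 32 called) and DNA damage response genes to the right for radiation (19 of 28 called).

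Of all tested genes 10.8% rose and 12.2% fell with DZNep, and 2.13% rose and 0.882% fell with radiation, beside the calls that follow. Of the other ligands of the TGF-beta superfamily, 11 of 32 were tested and 4 rose with DZNep, with a median of 0.25 against -0.02 for all genes. These were TGFB2 (0.97, SE 0.18) and BMP6 (1.22, SE 0.19), and, named after their values were seen because they stay under 10 CPM, INHBA (2.37, SE 0.35) and BMP2 (2.32, SE 0.30). With radiation edgeR and DESeq2 called 0 of the 11, and 1 had an unadjusted p under 0.05 in edgeR. GFRAL had at most 1 count per library and RET 0.149 to 0.376 CPM, so the known GDF15 receptor was near 0 in this line. FURIN, a protease gene whose product is known to cleave GDF15 precursors, stood at 194 and 195 CPM with DZNep at 4 and 0 Gy and at 109 and 73.0 CPM with DMSO at 4 and 0 Gy, and rose with DZNep (1.12, SE 0.17, adjusted p = 0.000692). The related protease gene PCSK6 fell (-0.77, SE 0.16). Of 6 tested binding partners of NUPR1, the acetyltransferase gene EP300 rose with DZNep (0.52, SE 0.16, adjusted p = 0.0294) and PTMA, the prothymosin gene, which has processed pseudogenes, fell with radiation (-0.59, SE 0.14, adjusted p = 0.0382). Of the 6 tested line markers, KRT8 (1.35, SE 0.13) and KRT18 (1.58, SE 0.13) rose with DZNep and the others were not called. Of those, KRT19 (-0.27, SE 0.16) and VIM (-0.27, SE 0.13) were below 0 and the rest above 0. Among the markers of other cell types COL1A1 (-0.54, SE 0.18) and COL3A1 (-0.74, SE 0.22), named after its value was seen, fell. With radiation edgeR called 0 of the 6 line markers and 0 of the 5 tested markers of other cell types (2 and 2 at an unadjusted p under 0.05, and 0 and 1 in DESeq2).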

How the data were processed

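The files deposited by the authors hold whole-number counts for each gene symbol, unscaled, in a table for each library. The submitters' processing notes name TopHat, edgeR and hg19. Versions, the counting program, annotation and strand setting were not given in the sources used here. Libraries were prepared from Trizol-extracted RNA using Lexogen's SENSE mRNA kit, as the labels' protocols state. Counts were TMM-scaled with edgeR 4.0.16 (R 4.3.3). Log2 ratios used a prior count of 2. Their intervals are exact conditional binomial 95% intervals without it, and that of the departure is a Wald interval of log counts. The 13378 genes that reached 1 CPM in 2 libraries or more were tested by edgeR's quasi-likelihood method, with drug and dose as additive terms over all libraries and an adjusted p of 0.05. SE is the log2 fold change over the square root of F. The model has 1 residual and 11.5 prior degrees of freedom. With 1 library per group, the residual of a gene is its departure from additive drug and dose effects. The p-values rest on such departures across genes, and not on a spread between replicate libraries or cultures. Differences between these libraries may be technical.

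The 3 genes and all lists were chosen with earlier results of these data known. Named genes were drawn from a rule: up to 4 called genes per list and effect by size at 10 CPM or more, the highest and lowest departures per list, the 5 nearest genes per member, and DDIT3, ATF4, TRIB3, CDKN1A, MDM2 and EGR1. Some genes that the rule names are not reported here. Alternatives were RLE and plain library size scaling, other prior counts, no filter or a 10 CPM filter, DESeq2 1.42.0, and a model without the other factor. Of the 26364 symbols 4250 had no count. GENCODE 29 gave transcript lengths and overlaps by symbol.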

Additional observations from a re-analysis of the deposited data

How the results depend on the processing

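No paired analysis was possible because each group is 1 library, and for the same reason no replicate could be left out. All ratios and departures of GDF15, NUPR1 and ATF3 kept their direction under RLE scaling, plain library size, no prior count and a prior count of 10. Values outside the counting interval were those of 4 Gy over 0 Gy in DZNep under plain library size, 3.03 for GDF15 and 1.27 for ATF3. The edgeR calls depended on the model: without the other factor 355 genes rose and 366 fell with DZNep, and 0 rose and 0 fell with radiation (524 at an unadjusted p under 0.05, and 447 rises and 214 falls in DESeq2 with both factors). Against 285 radiation rises and 118 falls, a 10 CPM filter gave 590 and 441, no filter 134 and 65, and plain library size 266 falls.

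In the lists, without the other factor the DZNep calls were 7 for ATF4 and CHOP targets, 7 for stress kinase and early genes, 2 for bZIP partners, 1 for other unfolded protein response genes, 1 for GDF15 proteases, and 0 for the eIF2 switch, NUPR1 partners, DNA damage response genes and other cell types, and the radiation calls were 0 in every list. With a 10 CPM filter the radiation calls were 9 for ATF4 and CHOP targets, 4 for bZIP partners, 8 for stress kinase genes, 2 for NUPR1 partners and 2 for line markers, and the DZNep calls were 2 for TGF-beta ligands and 1 for other cell types. DESeq2 gave 7 radiation calls for ATF4 and CHOP targets, 4 for stress kinase genes and 1 for other cell types, and 1 DZNep call for other cell types. Under RLE scaling stress kinase genes had 3 radiation calls and other cell types 1, and under plain library size stress kinase genes had 3 and the eIF2 switch 2. With no filter the radiation calls of bZIP partners, NUPR1 partners and other unfolded protein response genes, and the DZNep call of NUPR1 partners, became 0. The causes were not tested. Depth limits NUPR1 most, through 70 counts in DMSO 0 Gy.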

Other observations

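Departures from the sum of log2 ratios, which have no error estimate, ran both ways in the lists and are given as values. Among ATF4 and CHOP targets at 10 CPM or more, 15 of 32 lay above 0, against 52.0% of the 8506 genes, with a median of -0.08. The highest were DDIT3 (0.63) and JDP2 (0.60), and the lowest were CTH, a cysteine synthesis enzyme gene (-1.12), and SLC7A11, a cystine transporter gene (-0.92). Among DNA damage response genes 10 of 22 lay above 0, with a median of -0.10. BAX, a pro-apoptotic gene (0.65), and DDB2, a DNA repair gene (0.47), were highest, and RRM2B, a ribonucleotide reductase subunit gene (-0.95), and SPATA18 (-1.57) lowest. In other lists JUND, which encodes a bZIP partner of ATF3, was at 0.98 with 40.0 and 28.0 CPM with DZNep at 4 and 0 Gy and 39.1 and 54.1 CPM with DMSO at 4 and 0 Gy. NR4A1 was at -0.97, EGR1 at -0.87 and MDM2 at -0.71.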
